A study of Mus musculus with 8 samples.

Results

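Toll-like receptors are the sensors with which macrophages recognize microbial lipids, proteins and nucleic acids as well as material from dying cells. The receptors described here are Tlr1, Tlr2, Tlr3, Tlr4, Tlr5, Tlr6, Tlr7, Tlr8, Tlr9 and Tlr13, which are 10 of the 55401 genes in the table of gene counts and were selected by gene symbol, with earlier results of these data known. Messenger RNA was counted in mouse hepatic macrophages from normal and steatotic livers that had been cultured for 24 h with cholesterol crystals (CC, 500 μg/ml) or with vehicle (Veh), with 2 libraries in each of the 4 groups. The normal livers came from WT mice kept on a standard diet, and the steatotic livers came from MC4R-KO mice, which lack the melanocortin 4 receptor and become obese, given a Western diet over 6 to 10 weeks. Both were on a C57BL/6J background, and genotype and diet changed together, so their effects cannot be told apart here. The macrophages were enriched from non-parenchymal cells with an antibody against F4/80, a macrophage surface protein, which takes both resident Kupffer cells and macrophages derived from monocytes. Feeding began in 8-week-old male mice in the longer feeding protocol of the methods, while the age and sex of the mice behind these cultures are not given separately. How many mice stand behind a library is not given in the sources used here, so p-values measure only the spread between these libraries, which may be technical.

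As background, the family falls into receptors of the cell surface and receptors of the endosome. Tlr2 pairs with Tlr1 or Tlr6 to bind bacterial lipopeptides, Tlr4 works with Cd14 and Ly96 (MD-2) to bind lipopolysaccharide, and Tlr5 binds flagellin. In the endosome, Tlr3 senses duplex RNA, Tlr7 and Tlr8 sense RNA fragments, Tlr9 senses CpG DNA and Tlr13 senses bacterial ribosomal RNA. They depend on the escort protein Unc93b1 to leave the endoplasmic reticulum, and most signal through the adaptor Myd88 to NF-kB and interferon regulatory factors. In the liver, Kupffer cells meet gut-derived ligands of these receptors in portal blood.

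The libraries held between 58668655 and 74529462 counts. Thus 3 counts corresponded to 0.0403 to 0.0511 CPM (counts scaled to the library total), a limit that covers counting error only. Low counts tended to be multiples of 4, and at 4 counts per fragment 3 fragments corresponded to 0.161 to 0.205 CPM. Macrophage markers were abundant in every library, with a summed level of Adgre1 (F4/80), Csf1r, Cd68, Mertk and Fcgr1 between 6044 and 7495 CPM. Mc4r itself went against the genotype, with 0 counts in all 4 libraries labelled normal and 22 to 72 counts in the 4 labelled steatotic. Counts per gene do not show which part of the gene was read, so a transcript that remains from the targeted locus and exchanged labels cannot be told apart, and every direction below between livers rests on the labels. A gene was tested when at least 1 library reached 0.5 CPM, which 15202 genes and 9 of the 10 receptors did. Tlr5 did not.

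In cells cultured with vehicle, the label steatotic went with higher RNA of 7 of the 9 tested receptors and lower RNA of 1 (Tlr2), while 1 (Tlr4) did not pass the test, which was edgeR's quasi-likelihood test at a Benjamini-Hochberg adjusted p of 0.05. Of all 15202 genes, 30.7% passed it in this comparison, 16.4% as higher and 14.3% as lower. The size of the differences ran from 1.38-fold for Tlr13 to 4.04-fold for Tlr1 and 4.25-fold for Tlr9. CC lowered 2 receptors in the normal group, Tlr1 and Tlr8, against 11.8% of all genes in either direction (6.27% raised, 5.54% lowered). In the steatotic group CC lowered 4 receptors, Tlr1, Tlr8, Tlr9 and Tlr13, and raised 1, Tlr2, against 22.9% of all genes (12% raised, 10.9% lowered). The CC response itself differed between the livers for 4 of 9 receptors against 3.22% of all genes. It was shifted upward with the label steatotic for Tlr2 (1.95% of all genes) and downward for Tlr1, Tlr9 and Tlr13 (1.27%).

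**Figure D1:**
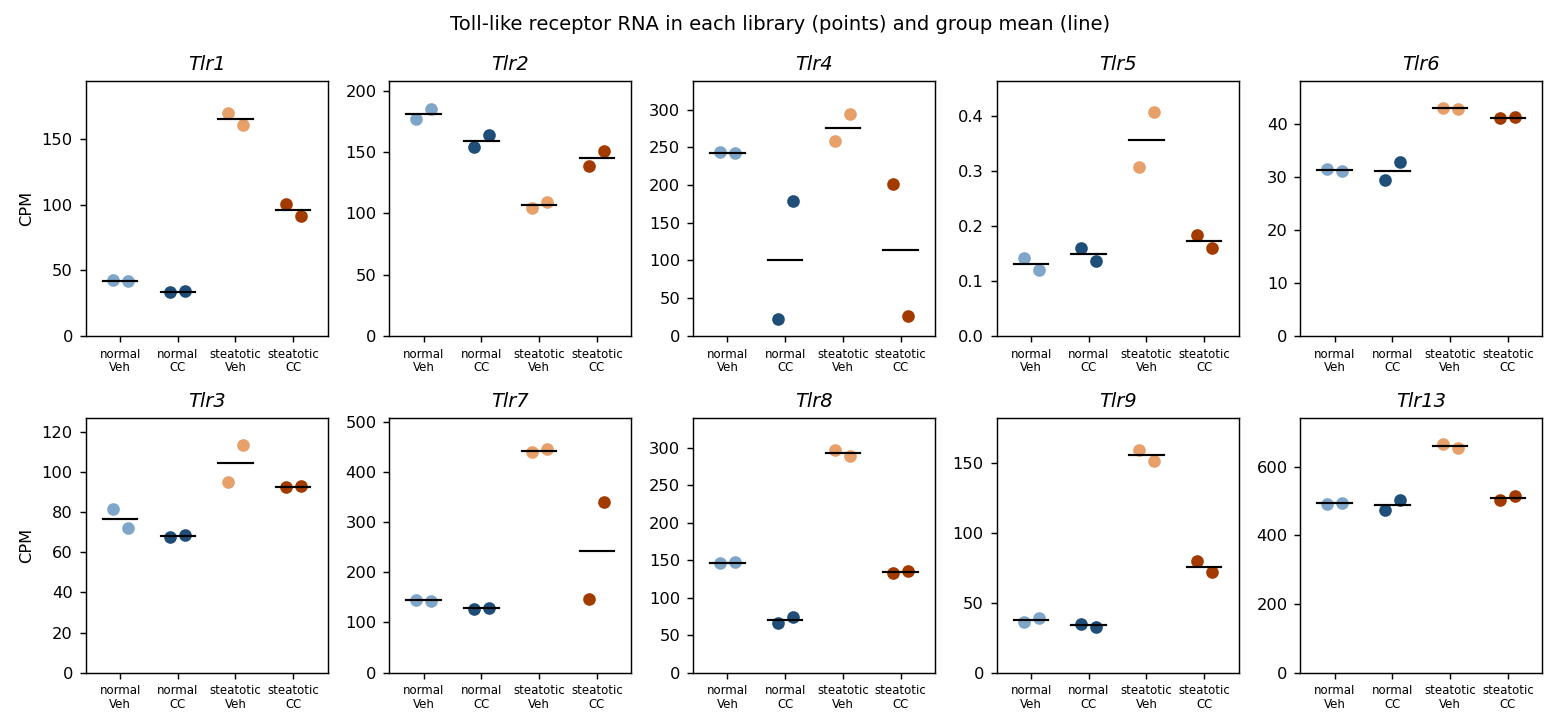
CPM of the 10 receptors in each of the 8 libraries (points, coloured by group) with the mean of the 2 libraries of a group (line); each panel has its own linear axis that starts at 0. Every receptor but Tlr2 has its highest mean in the steatotic Veh group, for Tlr5 on few counts, and Tlr2 stands lowest there. The 2 libraries of a group lie far apart for Tlr4 in both CC groups and for Tlr7 in the steatotic CC group.

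The lipopeptide receptors moved apart from each other. Tlr2, on chromosome 3 (83836272 to 83841767, minus strand, GRCm38), was at 177 and 185 CPM in the normal Veh libraries and at 104 and 109.5 CPM in the steatotic Veh libraries. With CC it was at 154 and 164 CPM in the normal group and at 139 and 151 CPM in the steatotic group. The 4 libraries labelled steatotic all lay below the 4 labelled normal, and the distance was shorter with CC than with Veh. At Veh the difference was -0.72 in log2 units (SE 0.0576, edgeR adjusted p = 7.42e-05), and with CC it was -0.11 (SE 0.0573, edgeR adjusted p = 0.207). With the label steatotic, CC raised Tlr2 by 0.46 (SE 0.0574, edgeR adjusted p = 0.000982). The value in the normal group was -0.15 (SE 0.0573, edgeR adjusted p = 0.156), and the difference of the responses was 0.61 (SE 0.0811, edgeR adjusted p = 0.00899).

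Tlr1, its partner for triacylated lipopeptides, went the other way. It was at 42.3 and 42.2 CPM in the normal Veh libraries and at 170.1 and 161 CPM in the steatotic Veh libraries. With CC it was at 33.5 and 34.1 CPM in the normal group and at 101 and 91.3 CPM in the steatotic group. All 4 steatotic libraries lay above all 4 normal ones, and in both livers the CC libraries lay below the Veh libraries. The difference between livers was 2.02 in log2 units at Veh (SE 0.0605, edgeR adjusted p = 8.25e-07) and 1.53 with CC (SE 0.0599, edgeR adjusted p = 2.43e-06). CC gave -0.77 in the steatotic group (SE 0.0584, edgeR adjusted p = 7.96e-05) and -0.28 in the normal group (SE 0.0590, edgeR adjusted p = 0.0203). The fall in the normal group lost its call when any 1 of the 4 normal libraries was left out, with edgeR adjusted p between 0.0761 and 0.108. The difference of the responses, -0.49 (SE 0.0828, edgeR adjusted p = 0.0236), lost its call without any 1 of the 4 normal libraries or the steatotic Veh libraries, with edgeR adjusted p between 0.0529 and 0.0821.

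Tlr6, the partner for diacylated lipopeptides, changed less. Its libraries were at 31.6 and 31.3 CPM in the normal Veh group, 29.4 and 32.8 CPM in the normal CC group, 43.1 and 42.9 CPM in the steatotic Veh group and 41.2 and 41.3 CPM in the steatotic CC group. The 4 steatotic libraries were all above the 4 normal ones, and neither CC comparison passed the test. The difference between livers was 0.50 in log2 units at Veh (SE 0.0682, edgeR adjusted p = 0.00117) and 0.43 with CC (SE 0.0683, edgeR adjusted p = 0.00267). The CC values were 0.02 in the normal group (95% interval -0.14 to 0.18) and -0.04 in the steatotic group (95% interval -0.20 to 0.12).

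Tlr1 and Tlr6 are neighbours on chromosome 5 (64924679 to 64933563 and 64952031 to 64960097, both on the minus strand) and share coding sequence, which matters for how reads are assigned to them. The longest run of identical bases had 229 bases, all coding, in exon 4 of 4 of Tlr1 (chr5:64925537-64925765, minus strand) and in exon 2 of 2 of Tlr6 (chr5:64953828-64954056, minus strand), on GRCm38. It is shown because a 150-base read that lies within it cannot by itself be told apart between the receptors.
Tlr1 and Tlr6: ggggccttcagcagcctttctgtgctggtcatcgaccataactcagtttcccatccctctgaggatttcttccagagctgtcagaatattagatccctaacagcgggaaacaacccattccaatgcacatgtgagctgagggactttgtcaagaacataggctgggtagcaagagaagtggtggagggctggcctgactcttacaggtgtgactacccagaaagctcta
Such 150-base windows made up 4.3% of the windows of Tlr1 and 3.86% of those of Tlr6, and at 75 bases the shares were 10.3% and 9.25%. No other tested receptor shared a 75-base window with another receptor. Tlr1 also shares 75-base windows with 20 genes outside the family and Tlr3 with 1, so the counts of Tlr1, Tlr3 and Tlr6 are uncertain. These windows treat reads singly, and how far the mates of the paired reads place them was not tested.

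Per length of exon, levels can be set beside each other within a library. The ratio of Tlr1 to Tlr2, in CPM per kb of exon, was 0.215 and 0.205 in the normal Veh libraries, 0.195 and 0.187 in the normal CC libraries, 1.47 and 1.32 in the steatotic Veh libraries and 0.652 and 0.545 in the steatotic CC libraries. Tlr1 RNA thus exceeded Tlr2 RNA per kb in both steatotic Veh libraries and in none of the other 6 libraries. The ratio of Tlr6 to Tlr2 ran from 0.137 to 0.162 in the normal libraries and from 0.221 to 0.336 in the steatotic ones. These ratios concern RNA and not the pairs of receptor proteins on the cell.

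**Figure D2:**
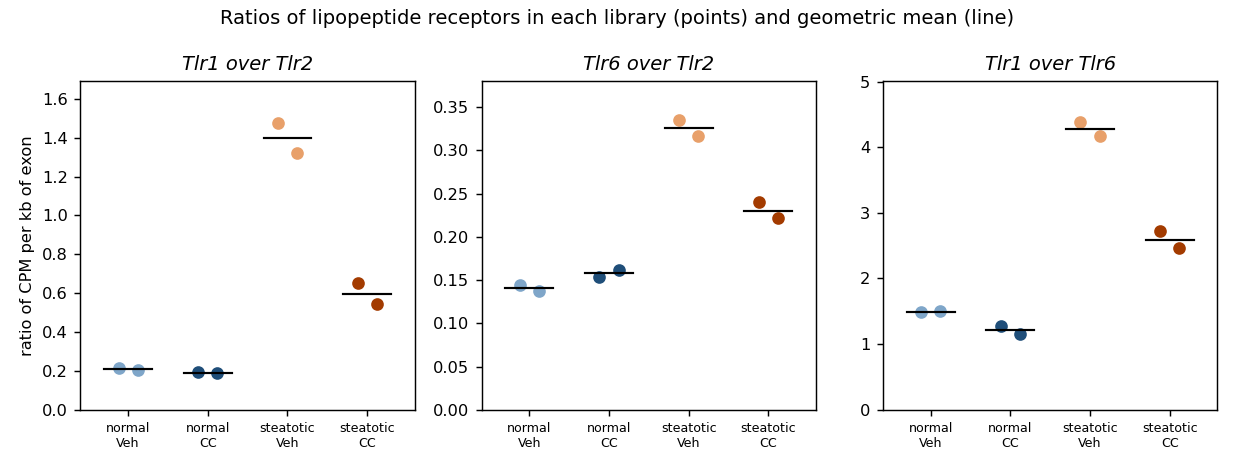
Ratios of Tlr1 to Tlr2, Tlr6 to Tlr2 and Tlr1 to Tlr6 in each library (points), in CPM per kb of exon on linear axes that start at 0, with the geometric mean of a group (line). The geometric mean of Tlr1 over Tlr2 is 0.210 in the normal Veh group, 0.191 in the normal CC group, 1.40 in the steatotic Veh group and 0.596 in the steatotic CC group.

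Tlr4, the lipopolysaccharide receptor on chromosome 4 (66827584 to 66930284, plus strand), agreed between replicates in the Veh groups and in neither CC group. It was at 244 and 242 CPM in the normal Veh libraries and at 259 and 293 CPM in the steatotic Veh libraries. With CC it was at 21.8 CPM in the first and 179 CPM in the second normal library, and at 202 CPM in the first and 26.4 CPM in the second steatotic library. All 4 CC libraries lay below all 4 Veh libraries (exact two-sided permutation test of 4 against 4, p = 0.0286, the smallest that 70 relabelings can give), which of all tested genes 8.85% did. Exchanging labels only within each liver, which keeps to the design, allows 36 relabelings and no p below 0.0556, the exact p that Tlr4 then had. The size of the gap depended on the library. edgeR gave -1.24 in the normal group (95% interval -4.78 to 2.31, adjusted p = 0.653) and -1.26 in the steatotic group (95% interval -4.80 to 2.29, adjusted p = 0.592). Without the low library the value was -0.40 in the normal group and -0.43 in the steatotic group, and without the high library it was -3.44 and -3.37. None of these 4 values passed the test. At Veh, the livers differed by 0.23 on the log2 scale (95% interval -3.25 to 3.72, edgeR adjusted p = 0.920), an interval that takes its width from the CC libraries through the shared estimate of the spread. With only the Veh libraries in the fit, the same 0.23 had an edgeR adjusted p of 0.0499.

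Ly96 and Cd14, which act with Tlr4, had no such gap between replicates. Ly96, the part of the complex that holds the lipid, was at 34.4 and 30.3 CPM in the normal CC libraries and at 45.9 and 41.7 CPM in the steatotic CC libraries. Cd14 was at 738 and 694 CPM in the normal CC libraries and at 447 and 505 CPM in the steatotic CC libraries. The annotated genes nearest to Tlr4 on either side, the pseudogenes Gm11220 (102040 bases away) and Gm11403 (235195 bases away), had 0 counts in all 8 libraries and so carry no information on the region. Tlr4 shares no 75-base window with another gene of the annotation.

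Tlr5, the flagellin receptor, was close to the limit of detection, with 8 to 10 counts in the normal libraries, 21 and 30 counts in the steatotic Veh libraries and 12 and 12 counts in the steatotic CC libraries. These were 0.121 to 0.160 CPM, 0.307 and 0.408 CPM, and 0.183 and 0.161 CPM. Because low counts in this table tended to be multiples of 4, 8 counts may be as few as 2 sequenced fragments, and no difference in Tlr5 is drawn from them.

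Among the endosomal receptors, Tlr9 on chromosome 9 (106222598 to 106226883, plus strand) followed the pattern of Tlr1. It was at 36.4 and 39.1 CPM in the normal Veh libraries and at 35.2 and 32.4 CPM in the normal CC libraries. The steatotic libraries were at 160 and 152 CPM with Veh and at 79.9 and 71.9 CPM with CC. All steatotic libraries lay above all normal ones, and CC separated the steatotic libraries clearly. The livers differed by 2.09 in log2 units at Veh (SE 0.0752, edgeR adjusted p = 1.65e-06) and by 1.19 with CC (SE 0.0737, edgeR adjusted p = 2.19e-05). CC gave -1.02 in the steatotic group (SE 0.0728, edgeR adjusted p = 5.83e-05) and -0.12 in the normal group (95% interval -0.30 to 0.05, edgeR adjusted p = 0.347). The difference of these responses was -0.89 (SE 0.103, edgeR adjusted p = 0.00572).

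Tlr8, an RNA sensor on the X chromosome (167242696 to 167264329, minus strand), passed the test as lower with CC in both livers. It was at 146 and 147 CPM in the normal Veh libraries, and CC took it to 66.3 and 73.6 CPM. In the steatotic group it was at 297 and 289 CPM with Veh and at 132 and 136 CPM with CC. The 4 CC libraries lay below the 4 Veh libraries (exact two-sided permutation test, p = 0.0286, and 0.0556 within livers), and the steatotic CC libraries stood close to the normal Veh libraries. The CC response was -1.03 in log2 units in the normal group (SE 0.0546, edgeR adjusted p = 5.32e-05) and -1.11 in the steatotic group (SE 0.0545, edgeR adjusted p = 9.93e-06). Their difference was -0.08 (95% interval -0.26 to 0.10, edgeR adjusted p = 0.722). The livers differed by 1.04 at Veh (SE 0.0544, edgeR adjusted p = 8.78e-06) and by 0.96 with CC (SE 0.0546, edgeR adjusted p = 1.47e-05).

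Tlr7, which lies next to Tlr8 on the same strand (167304929 to 167330558), did not repeat this. The normal libraries were at 145 and 143 CPM with Veh and at 128 and 129 CPM with CC, and the steatotic Veh libraries were at 439 and 446 CPM. The steatotic CC libraries were at 147 CPM in the first and 339 CPM in the second, a 2.32-fold gap. The lower of them still lay above every normal library. At Veh the livers differed by 1.67 in log2 units (SE 0.404, edgeR adjusted p = 0.0388), a call that was lost without any 1 of the other 6 libraries (edgeR adjusted p between 0.0785 and 0.159) and kept without either steatotic CC library. The CC response in the steatotic group was -0.85 (95% interval -1.89 to 0.20, edgeR adjusted p = 0.225). It was -0.37 without the first steatotic CC library (edgeR adjusted p = 0.00173) and -1.58 without the second (edgeR adjusted p = 1.03e-05), so the value was negative in both and its size rested on which library was kept. Tlr8, read 40600 bases away, had 8673 and 10117 counts in the same pair of libraries, and Prps2, 15764 bases away on the other side, had 613 and 681.

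Tlr13, the ribosomal RNA sensor on the X chromosome (106143204 to 106160493, plus strand), had the highest CPM of the family in every library. It was at 492 and 496 CPM in the normal Veh libraries, 475 and 503 CPM in the normal CC libraries, 666 and 654 CPM in the steatotic Veh libraries and 504 and 516 CPM in the steatotic CC libraries. With CC the steatotic libraries lay just above the normal ones, without overlap. The livers differed by 0.46 in log2 units at Veh (SE 0.0382, edgeR adjusted p = 8.60e-05) and by 0.09 with CC (95% interval -0.003 to 0.18, edgeR adjusted p = 0.140). CC gave -0.36 in the steatotic group (SE 0.0382, edgeR adjusted p = 0.000453) and 0.02 in the normal group (95% interval -0.07 to 0.11, edgeR adjusted p = 0.786), a difference of -0.38 (SE 0.0540, edgeR adjusted p = 0.0117).

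Tlr3, the sensor of duplex RNA on chromosome 8 (45395665 to 45411080, minus strand), was at 81.5 and 72.1 CPM in the normal Veh libraries, 67.8 and 68.9 CPM in the normal CC libraries, 95.4 and 113 CPM in the steatotic Veh libraries and 92.6 and 93.1 CPM in the steatotic CC libraries. The 4 steatotic libraries were all above the 4 normal ones. The livers differed by 0.49 in log2 units at Veh (SE 0.0880, edgeR adjusted p = 0.00465) and by 0.47 with CC (SE 0.0881, edgeR adjusted p = 0.00630). CC values were -0.13 in the normal group (95% interval -0.34 to 0.07) and -0.15 in the steatotic group (95% interval -0.36 to 0.05), and neither passed the test.

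**Figure D3:**
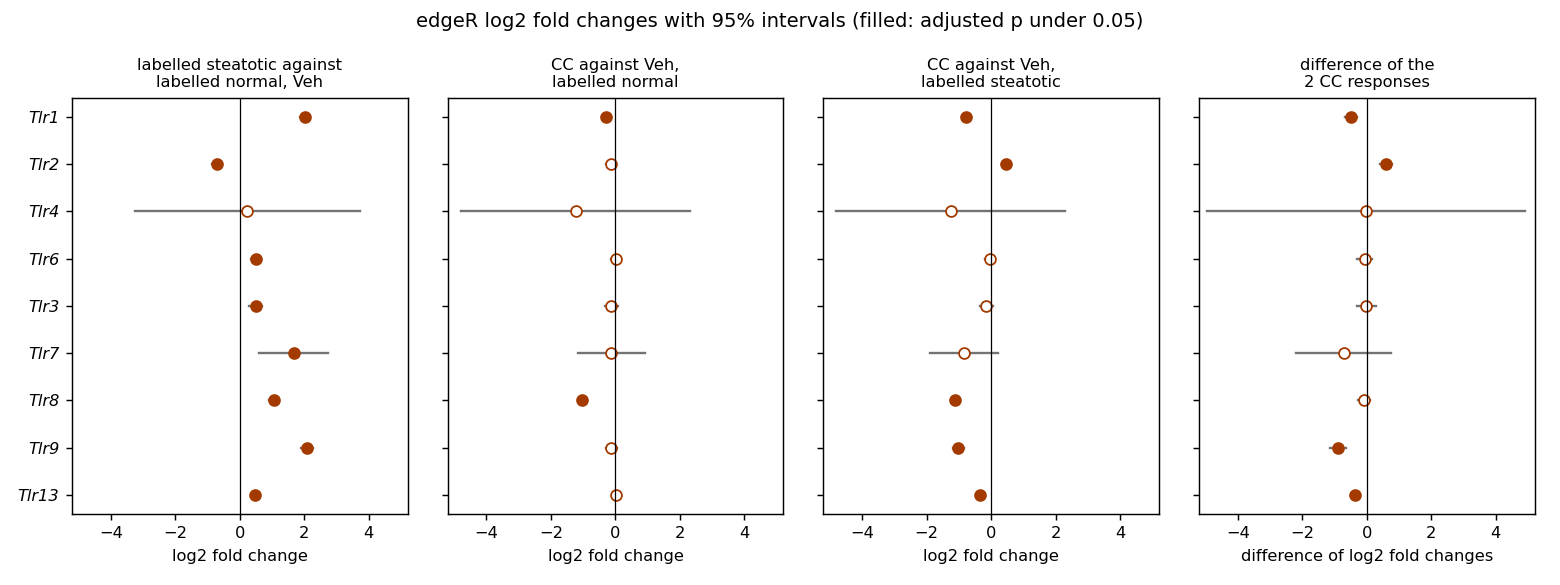
edgeR log2 fold changes of the 9 tested receptors with 95% intervals (grey lines) in 4 comparisons, filled where the adjusted p is under 0.05. The intervals of Tlr4 reach from -3.25 to 3.72 at Veh and are similarly wide elsewhere, those of Tlr7 are wide as well, and those of the other 7 receptors are narrow; the CC comparisons place Tlr8 near -1 in both livers and Tlr9 near -1 only with the label steatotic.

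Over both treatments, 6 of the 9 tested receptors (Tlr1, Tlr3, Tlr6, Tlr7, Tlr9 and Tlr13) had all 4 steatotic libraries above all 4 normal ones and 1 (Tlr2) had all 4 below, with an exact permutation p of 0.0286 each, and of 0.0556 each when labels were exchanged within treatments only, the smallest p of that test. Of all tested genes, 30.2% did not overlap between the livers, 13.5% above and 16.7% below. Between CC and Veh, 2 receptors (Tlr4 and Tlr8) had all 4 CC libraries below all 4 Veh libraries and none had them above, where 15.3% of all tested genes did not overlap (6.47% above, 8.85% below). In edgeR's comparison of the livers over both treatments 7 receptors were higher and 1 lower (41.3% of all genes, 21.4% higher and 19.9% lower). In that of CC over both livers 1 rose and 4 fell (27.1% of all genes, 13.7% raised and 13.4% lowered). With CC, 5 receptors (Tlr1, Tlr3, Tlr6, Tlr8 and Tlr9) were higher in the steatotic libraries and none was lower by edgeR, against 28.8% of all genes in either direction (15.9% higher, 12.9% lower). No receptor was lower at an unadjusted p of 0.05 or by DESeq2 either. The median log2 difference of the 9 receptors was 0.50 at Veh and 0.47 with CC, beside -0.01 and 0.003 over all genes. For CC, the median was -0.13 in the normal group and -0.77 in the steatotic group, beside -0.001 and 0 over all genes. The comparison of livers at Veh and the CC comparison of the steatotic group share the steatotic Veh libraries, so a high value there raises one and lowers the other. The related receptors Tlr11 and Tlr12 were at 0.304 to 1.37 CPM and 0.823 to 3.11 CPM. Tlr12 was lower in the steatotic CC libraries than in the normal CC libraries, at -1.28 (SE 0.222, edgeR adjusted p = 0.00424) and lower with CC in the steatotic group, at -1.14 (SE 0.221, edgeR adjusted p = 0.00840).

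Replicate agreement set which of these values can be read. Of the 36 pairs of replicates that 9 receptors have in 4 groups, 33 lay within 1.19-fold of each other and 3 lay over 2-fold apart: Tlr4 in the normal CC group (8.23-fold), Tlr4 in the steatotic CC group (7.63-fold) and Tlr7 in the steatotic CC group (2.32-fold). Of all tested genes, 6.85% were over 2-fold apart in the normal Veh group, 7.27% in the normal CC group, 6.79% in the steatotic Veh group and 6.06% in the steatotic CC group. Most of those were low genes, since among 9996 genes with a mean of at least 5 CPM the shares were 1.41%, 1.37%, 1.32% and 1.34%. A gap as wide as that of Tlr4 was found in 18 of these 9996 genes in the normal CC group and in 10 in the steatotic CC group. A gap as wide as that of Tlr7 was found in 87 in the steatotic CC group. The libraries that were low for Tlr4, the first normal CC and the second steatotic CC library, were not those that were low for Tlr7.

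**Figure D4:**
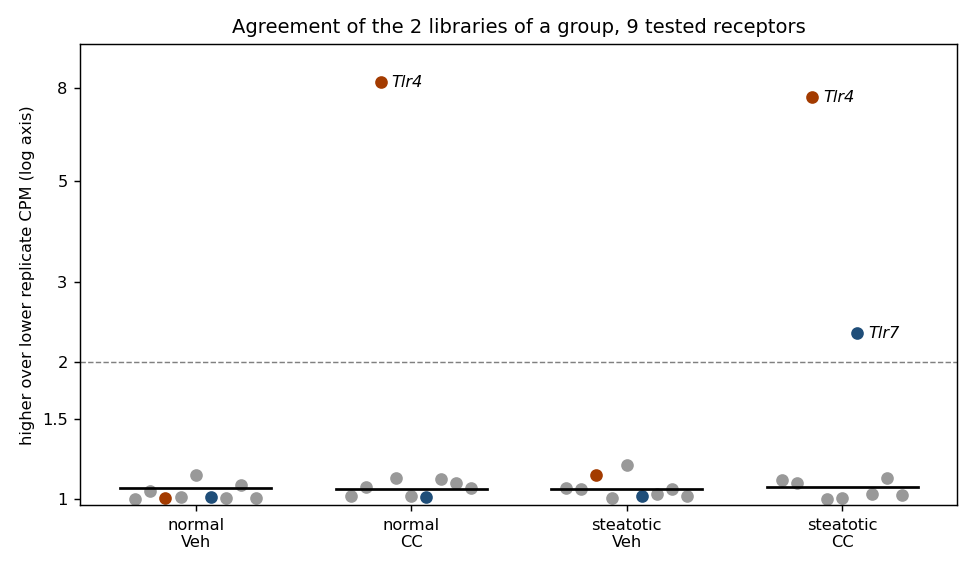
Higher over lower CPM of the 2 libraries of each group on a log axis, with 1 point per tested receptor, the median of the 9996 genes with a mean of at least 5 CPM in that group (short line, 1.05 to 1.06) and the 2-fold threshold (dashed line). All 9 receptors lie near 1 in the Veh groups, and Tlr4 at 8.23 and 7.63 and Tlr7 at 2.32 stand apart in the CC groups.

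The order of the levels per kb of exon changed with the label. In the normal Veh group it ran from Tlr13 (115 CPM per kb) through Tlr2 (60.1), Tlr4 (43.7), Tlr8 (40.9), Tlr7 (35.3), Tlr3 (14.7), Tlr1 (12.6), Tlr9 (10.9) and Tlr6 (8.44) to Tlr5 (0.0274), and the libraries of neighbours in this order did not overlap. In the steatotic Veh group it ran from Tlr13 (153 CPM per kb) through Tlr7 (108), Tlr8 (81.8), Tlr4 (49.7), Tlr1 (49.5), Tlr9 (44.8), Tlr2 (35.4), Tlr3 (20.04) and Tlr6 (11.5) to Tlr5 (0.0746), where Tlr4 and Tlr1 overlapped. Tlr2 thus stood at rank 2 in the former and at rank 7 in the latter. In the CC groups the places of Tlr4 and Tlr7 were not fixed by these libraries, since Tlr4 overlapped both its neighbours in each CC group and Tlr7 overlapped Tlr2 in the steatotic one. Tlr1 and Tlr9 also overlapped in the normal CC group. With the longest transcript as the length, 10 of 10 ranks were kept in each Veh group and 8 of 10 in each CC group.

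Over the 8 libraries, Tlr1 and Tlr9 had the most similar profiles within the family (Pearson r of log2 CPM 0.990), and Tlr2 ran opposite to Tlr13 (r = -0.953) and Tlr9 (r = -0.932). These values describe 8 libraries that form 4 groups, and much of each is set by the groups. Among 9987 genes with a mean of at least 5 CPM, the profiles most like Tlr8 were C1qa, C1qc and C1qb (r = 0.997 each), which encode the chains of complement C1q. C1qa was at 885 and 842 CPM in the normal Veh libraries, 334 and 344 CPM in the normal CC libraries, 2148 and 2248 CPM in the steatotic Veh libraries and 800 and 882 CPM in the steatotic CC libraries. Closest to Tlr9 were Cd300ld4 (r = 0.997), Dock2 (r = 0.996) and Spi1 (r = 0.995), which encodes the myeloid transcription factor PU.1. Closest to Tlr1 was F11r (r = 0.999), to Tlr2 Rrp8 (r = 0.980), to Tlr3 Narf (r = 0.984), to Tlr6 Rims2 (r = 0.995) and to Tlr13 Tbxas1 (r = 0.993). The nearest profiles were less alike for Tlr7 (Fam126a, r = 0.973) and for Tlr4 (Zfp809, r = 0.939).

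RefSeq promoters of GRCm38.p6 were at hand for 8 of the 10 receptors, all but Tlr4 and Tlr7, and 250 bases before the start were searched on both strands for 5 motifs chosen with these results known. Tlr1 and Tlr6 have 2 RefSeq starts each, and both were searched. The PU.1-type letters GAGGAA stood before Tlr1 (at 1 of its 2 starts), Tlr8, Tlr9 and Tlr13, and not before Tlr2, Tlr3, Tlr5 or Tlr6. A link of these letters to the CC responses was not tested. Of 32851 promoters, 23.3% hold these letters, so the match is a description and not a binding site. Sequences are shown for the receptors with this match and the larger changes with CC. They run 5′ to 3′ on the strand of the gene, with the match in capitals. They are Tlr1 (chr5:64933559-64933808, minus strand, match 23 bases before the start), Tlr9 (chr9:106222348-106222597, plus strand, 112 bases before) and Tlr8 (chrX:167264330-167264579, minus strand, 77 bases before, on the opposite strand).
Tlr1: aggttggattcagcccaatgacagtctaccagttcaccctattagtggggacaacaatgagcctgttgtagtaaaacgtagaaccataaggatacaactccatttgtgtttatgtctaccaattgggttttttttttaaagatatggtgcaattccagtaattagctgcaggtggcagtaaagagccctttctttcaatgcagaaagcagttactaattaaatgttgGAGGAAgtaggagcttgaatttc
Tlr9: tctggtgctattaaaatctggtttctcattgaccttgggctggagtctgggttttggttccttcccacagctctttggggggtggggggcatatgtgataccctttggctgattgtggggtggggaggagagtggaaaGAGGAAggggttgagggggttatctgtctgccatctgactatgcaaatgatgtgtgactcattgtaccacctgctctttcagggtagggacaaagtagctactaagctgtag
Tlr8: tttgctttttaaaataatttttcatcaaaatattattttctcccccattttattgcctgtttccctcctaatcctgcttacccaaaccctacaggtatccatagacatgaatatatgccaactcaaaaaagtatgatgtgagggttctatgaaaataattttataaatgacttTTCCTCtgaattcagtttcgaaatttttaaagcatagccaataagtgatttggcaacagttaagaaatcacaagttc
The NF-kB-type letters GGG, any 5 bases and CC, which 45.8% of promoters hold, stood before Tlr2, Tlr3, Tlr5 and 1 of the 2 starts of Tlr6. The AP-1-type letters TGANTCA (6.75% of promoters) stood before Tlr9 alone, GAAA, any 2 bases and GAAA (ISRE type, 2.98%) before the other start of Tlr6 alone, and CACGTG (6.02%) before the other start of Tlr1 alone.

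The rest of the pathway was read from 59 genes listed by role, of which 57 were tested. At Veh, 22 of the 57 were higher and 11 lower in the libraries labelled steatotic, where 16.4% and 14.3% of all genes were. CC raised 18 and lowered 6 in the normal group (6.27% and 5.54% of all genes) and raised 22 and lowered 8 in the steatotic group (12% and 10.9% of all genes). The response differed between livers for 10, 7 upward and 3 downward (1.95% and 1.27% of all genes).

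Co-receptors did not move as a set. Cd14, which hands lipopolysaccharide to Tlr4, was lower in the steatotic libraries at Veh, at -1.10 in log2 units (SE 0.0634, edgeR adjusted p = 1.48e-05) and rose with CC by 0.54 in the normal and 1.08 in the steatotic group, each past the edgeR threshold. Ly86 (MD-1), the partner of Cd180, was higher at Veh by 0.97 and lower with CC, at -0.95 in the normal and -1.27 in the steatotic group, each past the edgeR threshold. Ly96, Cd36 and Cd180 were also higher in the steatotic libraries at Veh. CC raised the scavenger receptor Cd36 in the steatotic group by 0.43 (SE 0.0761, edgeR adjusted p = 0.00699). Lbp, the serum protein that delivers lipopolysaccharide, did not pass the test at Veh or for CC.

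Of 6 chaperones and processing proteins of these receptors, CC lowered 3 (Unc93b1, Cnpy3 and Lgmn) in the normal group and 4 (the same 3 and Lman1) in the steatotic group and raised none, where 5.54% and 10.9% of all genes fell. Tmed7 did not pass the test for CC in either group. Unc93b1 was at 482 and 479 CPM in the normal Veh libraries and 325 and 345 CPM in the normal CC libraries, and at 723 and 737 CPM in the steatotic Veh libraries and 447 and 449 CPM in the steatotic CC libraries. It was higher in the steatotic libraries at Veh by 0.65 on the log2 scale and lower with CC, at -0.48 in the normal group and -0.69 in the steatotic group, each past the edgeR threshold. Lgmn, a lysosomal protease that processes Tlr9, was at -0.39 and -0.74 with CC, and its response differed between livers by -0.35 (SE 0.0399, edgeR adjusted p = 0.00552). Cnpy3, a folding chaperone for Toll-like receptors, was at -0.26 and -0.33, both past the threshold. Hsp90b1, the other folding chaperone, was lower in the steatotic libraries at Veh (-0.49) and did not pass the test for CC.

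Adaptors and kinases had changes in both directions, in comparisons where 16.4% and 14.3% of all genes were higher and lower at Veh, CC raised 6.27% and lowered 5.54% in the normal group, and CC raised 12% and lowered 10.9% in the steatotic group. Myd88 was higher in the steatotic libraries at Veh by 0.41 and Ticam2 by 0.80. CC raised Ticam1 (0.34) and Ticam2 (0.33) in the normal group, and lowered Pik3ap1, which links Toll-like receptors to PI3K, in the steatotic group (-0.50, beside -0.001 in the normal group), with a difference of responses of -0.50 (SE 0.0450, edgeR adjusted p = 0.00240). Of 14 kinases and ubiquitin ligases, CC raised Irak2, Ikbkg, Tbk1 and Ikbke and lowered Irak4 in both livers. Among those past the threshold Ikbkg had the largest rise, 0.63 in the normal and 1.09 in the steatotic group, and its steatotic CC libraries were at 54.2 and 76.1 CPM. Of 5 transcription factors, Nfkb1 rose with CC in the steatotic group by 0.34 (SE 0.0531, edgeR adjusted p = 0.00297), and the remaining 4 passed the test for CC in neither liver.

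Of 13 tested genes that these receptors are known to induce, CC raised 9 and lowered 1 (Il1b) in the normal group, where 6.27% of all genes rose and 5.54% fell. In the steatotic group it raised 10 and lowered 1 (Il10), where 12% of all genes rose and 10.9% fell. Cxcl2, a neutrophil chemokine, rose by 1.48 in the normal group (SE 0.0957, edgeR adjusted p = 0.000109) and by 2.86 in the steatotic group (SE 0.101, edgeR adjusted p = 2.92e-06). Ptgs2, the inducible cyclooxygenase, rose by 1.18 and 2.76, and Nos2 by 1.13 and 2.17. Il1b was at -0.47 in the normal group and at 0.49 in the steatotic group, both past the threshold. At Veh, 4 induced genes were higher in the steatotic libraries and 5 were lower, from Ccl5 at 1.81 to Cxcl2 at -1.60, where 16.4% and 14.3% of all genes were higher and lower. Among 7 tested inhibitors, 4 were higher (Irak3, Cyld, Tnip1 and Tnip3) and 2 lower (Tollip and Nfkbia) at Veh. CC raised Tollip and Tnip1 in both livers and also raised Irak3 and Nfkbia in the steatotic group, and lowered none of the 7, read against the same shares of all genes. Tnfaip3 was at 36.5 and 41.6 CPM with Veh and 88.9 and 90.7 CPM with CC in the normal group. In the steatotic group it was at 68.0 and 62.2 CPM with Veh and 227 and 110 CPM with CC. It passed the test as higher with CC over both livers (13.7% of all genes) and in neither liver alone.

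**Figure D5:**
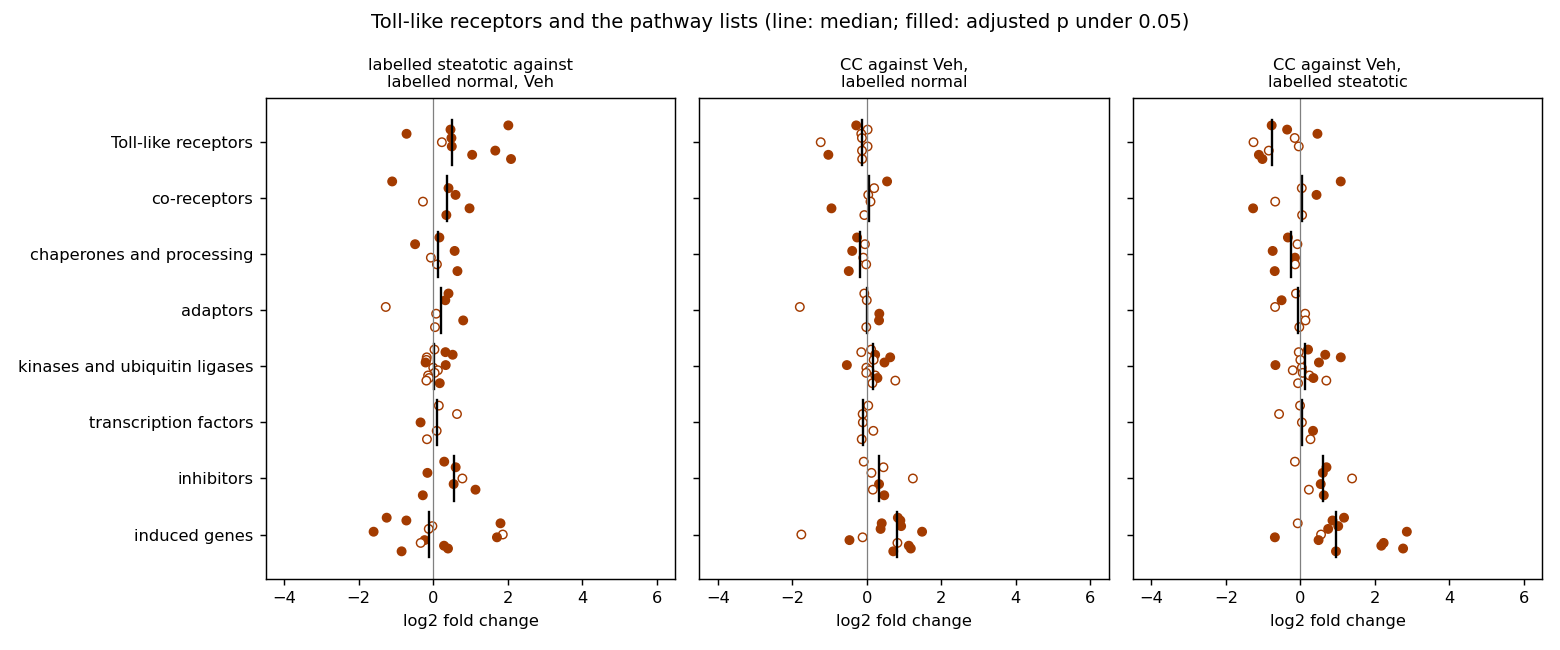
edgeR log2 fold changes of the receptors and of the pathway genes by role in 3 comparisons (1 point per tested gene, filled where the adjusted p is under 0.05, with the median of each role as a line). With CC the receptors have medians of -0.13 and -0.77 and the induced genes have medians of 0.82 and 0.96 in the normal and the steatotic group.

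Cell type markers moved with the liver label and are given beside the receptors, in a comparison where 16.4% and 14.3% of all genes were higher and lower at Veh. Of the 5 macrophage markers, Adgre1, Mertk and Fcgr1 were higher and Cd68 lower at Veh, with Cd68 at -0.74 in log2 units. Of the 6 resident Kupffer cell markers, Vsig4, Timd4, Cd5l and Folr2 were higher and Clec4f and Marco lower, from 0.93 to -1.93. Because RNA was taken from the whole culture, fewer cells of a type and less RNA per cell cannot be told apart. The 4 monocyte markers Ly6c2, Ccr2, Plac8 and Chil3 were all higher in the steatotic libraries at Veh, with a summed level of 71.2 to 113 CPM in the steatotic and 6.00 to 8.85 CPM in the normal libraries. T or NK cell markers summed to 9.13 to 13.1 CPM against 0.631 to 1.13 CPM, and B cell markers to no more than 3.02 CPM in any library. Neutrophil markers summed to 144 to 160 CPM against 74.1 to 91.2 CPM, with Csf3r as the main part, S100a8 lower at Veh (-0.92 in log2 units, past the edgeR threshold) and the defining Ly6g at 0 in all 8 libraries. Dendritic cell markers summed to 9.42 to 10.6 CPM against 4.20 to 6.73 CPM, and endothelial markers to 214 to 242 CPM against 138 to 170 CPM. Members of these lists differed in direction at Veh. Xcr1 was higher (2.62 in log2 units), Pecam1 was higher (mean 95.2 against 26.1 CPM) and Stab2 lower (19.8 against 25.7 CPM), each past the edgeR threshold. Flt3 also passed as lower, with 0 counts in both steatotic Veh libraries against a mean of 0.274 CPM. It reached the level for testing only in the normal CC libraries (0.513 and 1.23 CPM), so no difference in Flt3 at Veh is drawn. Hepatocyte markers went the other way, with 1.67 to 2.39 CPM in the steatotic and 47.5 to 57.5 CPM in the normal libraries. The part of these cells in the differences between livers was not tested.

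With CC, 4 of the 5 macrophage markers (Adgre1, Csf1r, Mertk and Fcgr1) fell in both groups, with a median over the 5 of -0.36 in the normal and -0.50 in the steatotic group on the log2 scale, and Cd68 rose in the steatotic one (0.17). Of all genes, CC lowered 5.54% in the normal and 10.9% in the steatotic group. Of 6 resident Kupffer cell markers, 3 fell in the normal group and 5 in the steatotic group. Their sum went from 3051 and 3113 CPM to 2394 and 2602 CPM in the normal group and from 4453 and 4495 CPM to 2934 and 3453 CPM in the steatotic group. Clec4f, Vsig4 and Timd4 fell in both groups, and Marco rose in the steatotic one. The sum of stellate cell markers went from 3.74 and 4.09 CPM to 8.25 and 9.63 CPM in the normal group and from 18.7 and 22.5 CPM to 109 and 136 CPM in the steatotic group. Dcn, most of that rise in each, rose past the edgeR threshold in both, while Lrat, Des and Col1a1 were below the level for testing. Among markers of other cells, CC in the steatotic group also raised Stab2, Cdh5 and Kdr (endothelial), S100a8 (neutrophil) and Ccr9 (dendritic cell). It lowered Pecam1 (endothelial, mean 95.2 to 38.1 CPM), Csf3r (neutrophil), Ccr2 (monocyte) and Ms4a1 (B cell). In the normal group it raised Cdh5 and S100a8 and lowered Csf3r. Ncr1 (NK cell) also passed as lower there, from 0.184 and 0.0755 CPM with Veh to 0 with CC. It reached the level for testing only in the steatotic libraries, so no difference in Ncr1 is drawn from the normal group. The part of these cells in the CC responses was not tested.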

How the data were processed

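Hepatic macrophages from normal and steatotic livers were cultured with Veh or CC (500 μg/ml, 24 h), with 2 libraries per group and 8 in all. According to the study's methods and the labels, the authors enriched poly(A) RNA, made strand-specific libraries, sequenced 150-base paired reads, trimmed them with fastp, aligned them with HISAT2 to mm10 and quantified genes with StringTie; versions are not given in the sources used here. The deposited values are estimated counts per gene, whole numbers without normalization. How they were derived from StringTie output is not given in the sources used here. Low values were often multiples of 4 (35.0% to 36.5% of counts from 1 to 20, beside 24.0% to 27.0% of higher counts), so counts were also divided by 4 as an alternative. Every count column was mapped to a sample by its name.

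Genes that reached 0.5 CPM in 1 or more libraries entered edgeR 4.0.16 (R 4.3.3): TMM scaling, 1 model with 4 group means, robust quasi-likelihood F test, two-sided, Benjamini-Hochberg adjustment over 15202 genes, threshold 0.05. CPM was computed per library total. Totals were 58668655 to 74529462 counts per library, and counting error is largest for Tlr5. The study names iDEP for its fold changes and no test. Single receptors were compared as 4 against 4 libraries with an exact permutation test. A correlation of the log2 CPM used a prior count of 4. The scripts were tested on simulated data. Lengths and positions came from the GENCODE annotation of GRCm38, promoters from RefSeq (GRCm38.p6).

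The receptors and the gene lists were chosen with earlier results of these data known. Values are printed for all receptors, and for other genes for those past the threshold with the lowest or highest change of a role, those a sentence turns on, and the nearest profiles; further names were chosen after their values were seen. Alternatives were DESeq2 1.42.0, other scaling, filters, prior count, robust setting, groups in the fit, the replicate number as a block and leaving out each library. A marker gene of the monocyte list is not reported here and was left out of the sum of that list.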

Additional observations from a re-analysis of the deposited data

Results flagged for a closer look

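The CC response differed between the libraries labelled steatotic and those labelled normal, by edgeR's test of the difference itself, for 4 receptors and 10 genes of the pathway lists, where 3.22% of all genes passed it. The values are the steatotic response minus the normal response on the log2 scale, with 2 libraries in each group. Tlr2 had 0.61, Tlr1 -0.49, Tlr13 -0.38 and Tlr9 -0.89, with edgeR adjusted p of 0.00899, 0.0236, 0.0117 and 0.00572. The call of Tlr1 depended on single libraries, as given with its values above, and those of the other receptors did not. Among induced genes, Ptgs2 had 1.58, Cxcl2 1.37, Nos2 1.05, Il1b 0.95 and Ccl5 -0.47. Among co-receptors and signalling genes, Cd14 had 0.54, Nfkbia 0.48, Ikbke 0.44, Lgmn -0.35 and Pik3ap1 -0.50. The edgeR adjusted p of these 10 genes ran from 0.00233 for Ptgs2 to 0.0266 for Ikbke. Groups of 2 libraries are too small for a test of single libraries that stand apart.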

How the results depend on the processing

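For 9 receptors in 7 comparisons, 63 log2 differences were recomputed, giving 1107 values. Of these, 1068 kept their side of the threshold, 30 lost the call, 9 gained it and 0 reversed a called direction. Direction was compared only where a value was called, so uncalled values that changed sign count as kept. Tlr4 between livers with CC, for example, went from 0.21 to -1.90 without the first steatotic CC library. With all libraries kept, 5 of 603 values changed sides. Tlr4 at Veh gained a call with only the 2 groups in the fit (0.23, edgeR adjusted p = 0.0499). Tlr7 at Veh lost its call with any count kept (adjusted p = 0.0885) and with the replicate block (1.66, adjusted p = 0.0525), and over both treatments with any count kept (adjusted p = 0.0501). Tlr2 with CC over both livers lost its call with library size only (0.13, adjusted p = 0.0527). The replicate numbers shared no deviation (correlations from -0.00485 to 0.0629 in 6 pairs of groups), and the replicate block took the count at Veh from 8 to 7 and changed no other count of receptors called. Leaving out each library gave 7 to 8 receptors called at Veh, 1 to 2 for CC in the normal group, 5 to 6 for CC in the steatotic group, 3 to 5 for the difference of responses, 5 to 6 between livers with CC, 7 to 8 over both treatments, 4 to 6 for CC over both livers, and 7 without overlap. These counts moved through Tlr1, Tlr2, Tlr3 and Tlr7. Tlr2 for CC over both livers lost its call without the first normal Veh, second normal CC, first steatotic Veh or second steatotic CC library (adjusted p between 0.0666 and 0.0819). Tlr3 gained a call for CC over both livers without the first steatotic Veh library (-0.20, adjusted p = 0.0361). A lone remaining library was assumed to vary like the other groups. Over all genes, CC in the normal group called 953 higher and 842 lower, and 808 higher and 1110 lower with library size only. That setting also turned the balance at Veh (2489 higher and 2176 lower) to 2210 and 2683, and over both treatments (3256 and 3028) to 2941 and 3509. It turned the balance of CC in the steatotic group (1821 higher and 1653 lower) to 1723 and 1792. For CC over both livers (2081 and 2043) it gave 1873 and 2398. Exact p of single receptors with labels exchanged within the other factor, added after seeing the data, were 0.0556 or more. The total of 1795 for CC in the normal group fell to between 1020 and 1095 without either normal CC library or the first normal Veh library, and the total of 490 for the difference of responses fell to between 298 and 314 without either normal CC library or the second steatotic Veh library. Replicates over 1.5-fold apart numbered 3 of 36, and over 3-fold 2. With 2 libraries per group, the intervals of Tlr4 and Tlr7 are wide, and Tlr5 is limited by depth.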
